A study of Mus musculus with 8 samples.

Results

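The Rab small GTPases of the mouse were followed in RNA-seq libraries of long-term hematopoietic stem cells (LT-HSCs) from asrij knockout (KO) and asrij floxed mice. Members were all protein-coding genes of the GRCm38 annotation whose symbol is Rab followed by a number and at most 2 lower-case letters. This gave 61 of 54749 genes, of which 59 encode a Rab GTPase, while Rab5if and Rab3ip fit the pattern but encode other proteins. By the compartment they are best known for, 21 were grouped as endosomal, 11 as recycling, 24 as secretory and 3 as other.

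The series holds 4 libraries of asrij floxed mice (replicates 1, 3, 4 and 5) and 4 of asrij KO mice (replicates 2, 3, 4 and 5), 1 library for each mouse, and its purpose is to compare the LT-HSC transcriptome without and with Asrij, the endosomal and mitochondrial protein encoded by Ociad1. All mice were 6 months old by the labels, the cells came from bone marrow, the KO is constitutive in the whole animal, and the floxed controls carry the loxP-flanked asrij alleles. The study's methods name a sort for LSK CD150+ CD48+ cells for these libraries, while other assays of the study used CD48- LT-HSCs. The cells are called LT-HSCs here as labelled. Ociad1 was at 31.4 to 66.9 CPM (counts relative to library size, after TMM, edgeR's correction for library composition) in floxed and at 11.7 to 19.7 CPM in KO libraries, with a log2 fold change of -1.58 (SE 0.27, adjusted p = 0.0249 by edgeR's quasi-likelihood test).

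Rab proteins are molecular switches that cycle between a GDP-bound and a GTP-bound form. Exchange factors (GEFs) switch them on, GTPase-activating proteins (GAPs) switch them off, and the active form recruits effectors that move, tether and fuse the membranes of a given compartment. A lipid attached to cysteines at the C terminus by Rab geranylgeranyl transferase holds them on the membrane. In blood cells, Rab5 and Rab7 direct endosomes towards the lysosome, Rab4 and Rab11 return receptors to the surface, and Rab27 docks the granules of myeloid cells and platelets.

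The C-terminal cysteine codons are the part of the gene that the lipid-attaching enzyme depends on, and they differ between the subfamilies described here. The last 30 coding bases before the stop codon are printed for 9 members, from GENCODE M21 transcripts on GRCm38, 5′ to 3′, with every cysteine codon in capitals.
Rab5a (chr17:53506397-53506426, plus strand): cagccagccagaagccagTGTTGTagtaac
Rab5b (chr10:128679533-128679562, minus strand): cagcagaacaagagccagTGTTGTagcaac
Rab7 (chr6:88000438-88000467, minus strand): gccaaggcctccgcagaaagcTGCagtTGT
Rab4a (chr8:123834098-123834127, plus strand): caggctccaagtgcacaggagTGTggcTGC
Rab11a (chr9:64716852-64716881, minus strand): aagccaaaggtgcagTGCTGTcagaacatc
Rab6a (chr7:100639287-100639316, plus strand): caaccagtcaatgaaggcggcTGTtccTGC
Rab6b (chr9:103181214-103181243, plus strand): cccccggccagcgagggcggcTGCtccTGT
Rab8b (chr9:66847722-66847751, minus strand): aagaccagtttcttccgcTGTtctctgctt
Rab27a (chr9:73095424-73095453, plus strand): gaggagaaggagaaggggttgTGTggcTGT
Rab4a, Rab6a, Rab6b, Rab7 and Rab27a end in a cysteine, another codon and a cysteine, the ending of 20 of the 59 Rab GTPases, whereas in Rab5a and Rab5b a pair of cysteines stands before the last 2 codons, as in 4 of 59. In 15 genes the last 2 codons were both cysteine, and in another 15 the only cysteine among the last 4 codons was the 4th from the end, as in Rab8b and Rab11a. Rab6a and Rab6b were 76.4% identical over 525 aligned coding bases and Rab27a and Rab27b 69.95% over 649, and Rab6a and Rab6b shared no stretch of 50 bases.

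The libraries held 56661356 to 120858975 transcript counts, and Rab GTPases took 0.288% to 0.458% of the gene counts. As judged from genes nested inside Rab introns, a deposited count covers the whole span of a transcript with introns and both strands. Reads of a gene that overlaps a Rab gene are thus also in the Rab count. This touched 20 of the 59 genes at 10% of their count or more. Floxed replicate 3 stood apart from the other floxed libraries, and libraries numbered 4 and 5 differed from those numbered 1 to 3 in both genotypes. By the chi-square of their counts, no pair of libraries of a genotype agreed within sampling noise, with a mean of 11.6 to 16.9 per gene between KO 4 and 5, KO 2 and 3 and floxed 4 and 5 and of 83.6 to 292 between all other pairs. Of 12 HSC markers, Procr and Hoxb5 were below 0.5 CPM on average. The summed level of the list was 106 to 135 CPM in floxed and 135 to 153 CPM in KO libraries, with 1 of 11 tested higher. The summed level of 12 neutrophil markers was 16781 CPM in floxed replicate 3, 45923 to 52052 CPM in the other floxed libraries and 25059 to 31902 CPM in KO libraries, with 0 of 12 past the test. The sum of 12 megakaryocyte and platelet markers was 77.4 to 144 CPM in floxed and 273 to 337 CPM in KO libraries, with 8 of 12 higher. That of 12 erythroid markers was 28392 to 71848 CPM in floxed and 123958 to 296438 CPM in KO libraries, with 3 of 12 higher. That of 8 macrophage markers was 306 to 355 CPM in floxed and 444 to 481 CPM in KO libraries, with 2 of 8 higher. That of 9 T and NK cell markers was 73.4 to 96.7 CPM in floxed and 55.3 to 61.03 CPM in KO libraries, with 1 of 9 lower. That of 9 B and plasma cell markers was 534 to 602 CPM in floxed and 536 to 597 CPM in KO libraries, with 1 higher and 1 lower. Each list kept all of its markers above 0 in at least 1 library, and in bulk RNA fewer cells of a type and less RNA per cell cannot be told apart.

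Rab7, Rab5c, Rab37, Rab1b and Rab44 had the highest levels per length. The unit is CPM per kb of spliced transcript. Because counts also cover introns, it sets genes of different length side by side only roughly. Rab7, the GTPase of late endosomes, was at 106 ± 35.1 CPM per kb (SD, n = 4) in floxed and 84.0 ± 2.67 in KO LT-HSCs. Rab5c, an early endosome GTPase, was at 96.6 ± 26.3 in floxed and 89.7 ± 7.11 CPM per kb in KO LT-HSCs. Rab37 and Rab44, known from secretory granules of myeloid cells, had 91.5 ± 23.1 and 78.1 ± 27.8 CPM per kb in floxed LT-HSCs. Rab1b, which acts between the ER and the Golgi, had 80.0 ± 39.4 CPM per kb. Rab6a at 69.4 ± 6.97 and Rab27a at 68.3 ± 22.2 CPM per kb followed, and neighbours in this order did not differ beyond their SD. For 3 of the 5 the order rests on shared reads: 92.0% of the Rab37 count was also the count of Cd300lf, a myeloid receptor gene inside Rab37 on the opposite strand. Gm5577, an opposite-strand gene overlapping Rab7, had 93.1% of the Rab7 count, and the pseudogene Rpl35a-ps3 inside Rab44 had 19.5% of the Rab44 count. With the genomic span as the length, the 5 highest were Rab24, Rab1b, Rab3d, Rab43 and Rab11b, and Rab1b was the only gene among the 5 highest on both scales. Shared reads touch this order too. Prelid1, overlapping Rab24 on the opposite strand, had 210% of its count, and Gm45140, overlapping Rab43 on the same strand, 112%. At the other end, Rab9b was at 0 in all 8 libraries, and Rab17, Rab3c, Rab39b, Rab40b and Rab42 had too few counts to be tested.

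**Figure D1:**
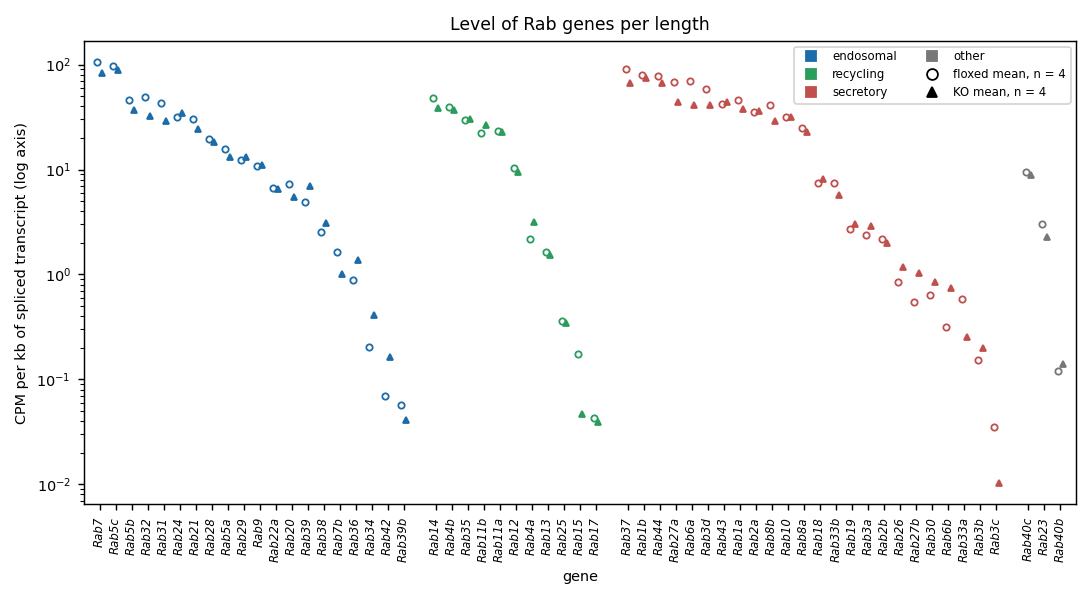
Mean level of 58 Rab GTPase genes in CPM per kb of spliced transcript on a log axis, by class, with open circles for floxed and triangles for KO LT-HSCs (n = 4 each); Rab9b, at 0, is not drawn. Within the endosomal, recycling and secretory classes the levels spread over several orders of magnitude, and Rab7, Rab5c and Rab37 are at the top.

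In asrij KO LT-HSCs, 1 of the 53 Rab GTPase genes tested was lower, Rab6a, and 0 were higher at an adjusted p-value under 0.05 by edgeR's quasi-likelihood test. Of all 21902 genes tested, 1.75% were lower and 1.22% higher by this rule, so 1 of 53 was near the background. At an unadjusted p-value under 0.05, 10 Rab genes were lower and 3 higher, against 12.1% and 9.63% of all genes tested. DESeq2 called 2 Rab genes lower and 1 higher at an adjusted p-value under 0.05, against 6.03% and 5.1% of all genes. Adding an absolute log2 fold change above 1.5 left 0 Rab genes, against 1.19% of all genes, and 0 by DESeq2. The median log2 fold change was -0.09 over the 53 Rab genes and -0.01 over all genes tested, with 33 of 53 Rab genes below 0 (62.3%, against 50.4% of all genes). There was no overlap between KO and floxed values for Rab6a, Rab8b, Rab23 and Rab15, which were lower in every KO library (log2 fold changes of -1.93 to -0.43), and for Rab6b and Rab36, which were higher in every KO library (1.22 and 0.62). These 4 and 2 of 53 compare with 7.66% of all genes for lower and 7.1% for higher. The summed level of the 59 Rab GTPase genes was 3226 to 3439 CPM in KO libraries, 4183, 4439 and 4405 CPM in floxed replicates 1, 4 and 5 and 2817 CPM in floxed replicate 3. The KO values thus lay between floxed replicate 3 and the other floxed libraries.

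**Figure D2:**
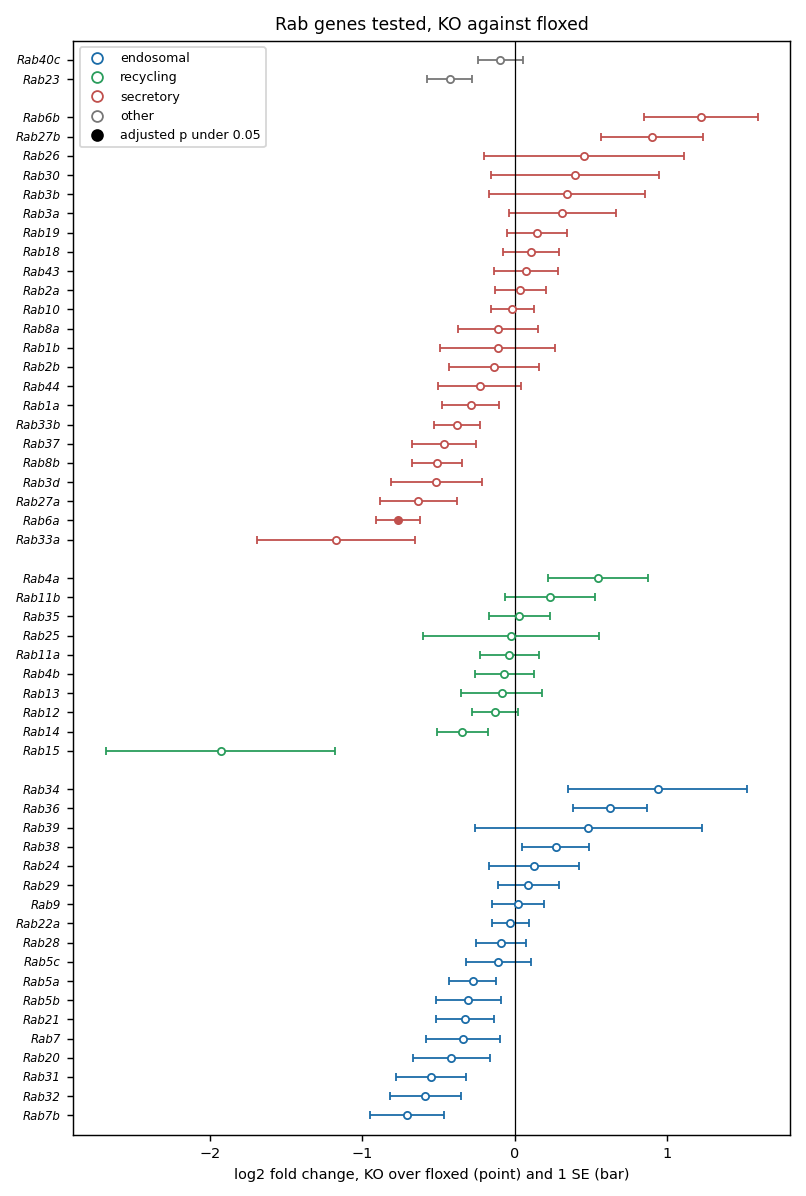
Log2 fold change of KO over floxed LT-HSCs (points) with 1 SE (bars) for the 53 Rab GTPase genes tested, by class, from edgeR's quasi-likelihood fit on 4 libraries each. Rab6a is the filled point, with an adjusted p-value under 0.05, and the other 52 points are open.

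Rab6a, which directs traffic within and from the Golgi, fell by 0.76 on the log2 scale in asrij KO LT-HSCs. The gene lies on the plus strand of chromosome 7 from 100607410 to 100641268 (GRCm38, the transcript counted, 8 exons). Its level was 203, 158, 181 and 184 CPM in the floxed libraries (replicates 1, 3, 4 and 5, the order kept throughout) and 112, 115, 98.6 and 103 CPM in the KO libraries (replicates 2, 3, 4 and 5). All KO values lay below all floxed values, and the difference of the mean log2(CPM + 1) was -0.66 within numbers 1 to 3 and -0.85 within 4 and 5. The mean was 182 ± 18.2 CPM in floxed and 107 ± 7.40 CPM in KO LT-HSCs (SD, n = 4), a fold of 0.589 (log2 SE 0.14, adjusted p = 0.0312 by edgeR's quasi-likelihood test, and p = 0.0286 in an exact two-sided permutation test, the smallest that 4 against 4 libraries allow). With the numbers as a replicate block, which leaves 3 pairs, the log2 fold change was -0.71 (adjusted p = 0.168 by the same test), and on those 6 libraries without a block it was -0.71 (adjusted p = 0.27). With 1 library left out it was -0.81 to -0.69, with an adjusted p-value under 0.05 without floxed replicate 3 (0.00195) and of 0.0601 to 0.132 without any of the other 7.

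The 5′ end of Rab6a overlaps Mrpl48, a mitochondrial ribosomal protein gene on the opposite strand whose total was 29% of that of Rab6a. Mrpl48 was at 39.7, 42.0, 45.6 and 74.0 CPM in floxed and 30.7, 28.5, 44.0 and 43.7 CPM in KO libraries (log2 fold change -0.45, adjusted p = 0.313 by edgeR's quasi-likelihood test). With the whole Mrpl48 count taken off, Rab6a still had 110 to 163 CPM in floxed and 54.6 to 86.1 CPM in KO libraries, and the groups did not overlap. A shorter Rab6a transcript free of that overlap, annotated as a retained intron, had 11.2, 10.9, 5.23 and 6.86 CPM in floxed and 5.23, 4.37, 3.76 and 3.59 CPM in KO libraries. Its log2 fold change was -1.01, with an adjusted p-value of 0.0761 by edgeR's test. The direction was thus the same by each way of counting, and the call was not kept in the transcript of low count.

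Rab6b, the paralogue of Rab6a known from neurons, was low and went the other way. It had 1.48, 2.91, 1.02 and 0.920 CPM in floxed and 4.07, 3.43, 3.58 and 3.91 CPM in KO libraries. All KO values were above all floxed values, and floxed replicate 3 was the nearest to the KO libraries. The log2 fold change was 1.22 (SE 0.37, adjusted p = 0.097 by edgeR's quasi-likelihood test). The level per length in KO LT-HSCs was 0.749 CPM per kb for Rab6b and 40.9 CPM per kb for Rab6a.

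The other 10 tested Golgi members had adjusted p-values above 0.05. Of the 12 ER and Golgi Rab genes tested, 6 had a log2 fold change above 0 and 6 below 0, with a median of -0.04, and Rab6a was the 1 that passed the test. Rab33a, which like Rab33b takes part in Golgi traffic and autophagosome formation, had the largest change among those below 0 (log2 fold change -1.18, SE 0.52, adjusted p = 0.226 by edgeR), at 0.321 to 1.002 CPM in floxed and 0.156 to 0.512 CPM in KO libraries. Rab1b was at 112, 69.4, 198 and 232 CPM in floxed and 108, 94.5, 181 and 183 CPM in KO libraries. Its level followed the library number, with means of 95.9 CPM over numbers 1 to 3 and 199 CPM over 4 and 5, and did not separate the genotypes (log2 fold change -0.11, adjusted p = 0.899 by edgeR).

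**Figure D3:**
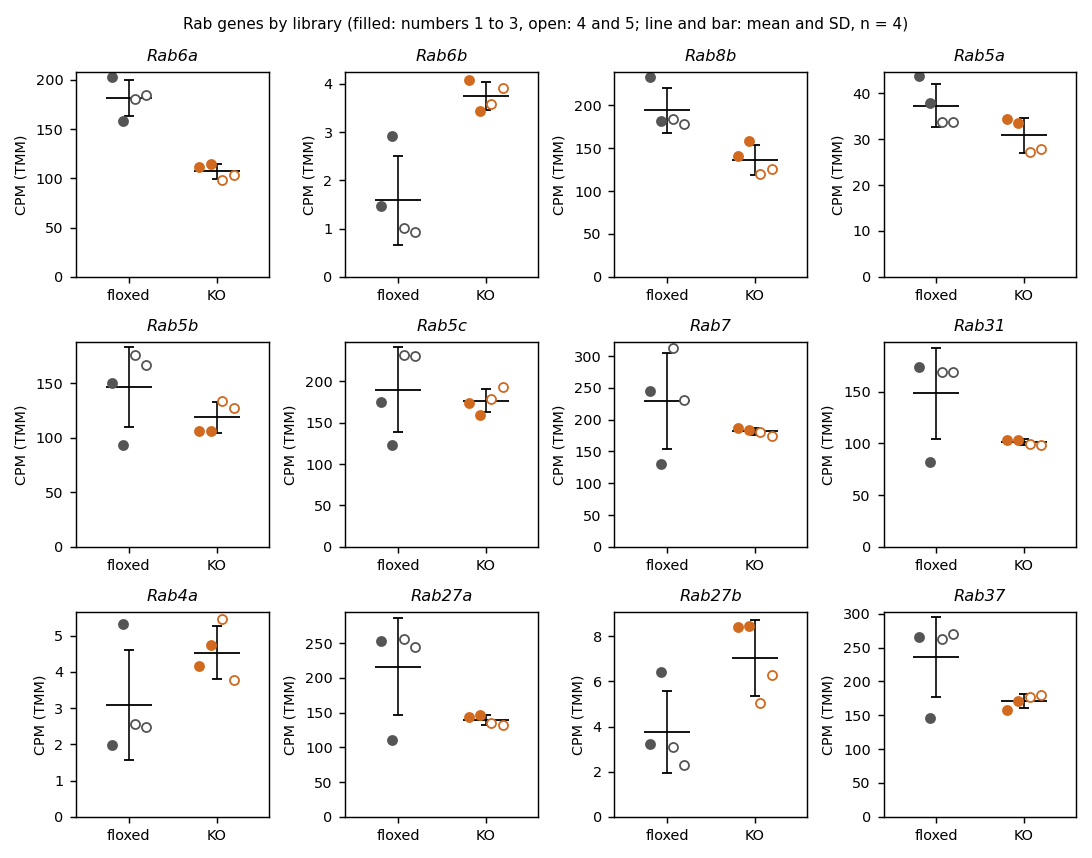
Level of 12 Rab genes in CPM in each floxed and KO library, with filled points for replicate numbers 1 to 3 and open points for 4 and 5, and a line and bar for the mean and SD (n = 4). The groups do not overlap for Rab6a, Rab6b and Rab8b, while for Rab27a, Rab31 and Rab37 the KO values lie between floxed replicate 3 and the other 3 floxed libraries.

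Among the exocytosis genes, Rab8b, which serves traffic from the trans-Golgi network to the plasma membrane, was lower in every KO library without passing the test. It had 233, 182, 184 and 178 CPM in floxed and 141, 158, 120 and 125 CPM in KO libraries, with a log2 fold change of -0.51 (SE 0.16, adjusted p = 0.11 by edgeR's quasi-likelihood test and 0.0205 to 0.513 over the alternatives run). Its paralogue Rab8a had a log2 fold change of -0.11 (adjusted p = 0.848). None of the 11 exocytosis genes tested passed by edgeR, 2 were lower and 1 was higher at an unadjusted p-value under 0.05 (12.1% and 9.63% of all genes), and the median was -0.11.

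Rab27a, which docks lysosome-related organelles and granules, was at 253, 111, 256 and 245 CPM in floxed and 144, 147, 135 and 132 CPM in KO libraries. Floxed replicate 3 was below all KO libraries and the other 3 floxed libraries were far above them. The log2 fold change was -0.63 (SE 0.25, adjusted p = 0.181 by edgeR) over all libraries and -0.84 (adjusted p = 0.00138) without floxed replicate 3. Rab37 showed the same order, with 265, 147, 262 and 270 CPM in floxed and 157, 171, 177 and 180 CPM in KO libraries (log2 fold change -0.46, adjusted p = 0.239). A Rab37 transcript that leaves out Cd300lf was at 21.04, 11.2, 17.7 and 16.9 CPM in floxed and at 14.6, 16.4, 10.7 and 12.9 CPM in KO libraries, and its groups overlapped, with KO replicate 4 the lowest. Rab44, a large atypical Rab known from mast cell granules, had 330, 138, 331 and 366 CPM in floxed and 249, 245, 249 and 250 CPM in KO libraries (log2 fold change -0.23, adjusted p = 0.681 by edgeR). A Rab44 transcript free of Rpl35a-ps3, annotated as a retained intron, was at 87.7, 22.6, 105 and 86.3 CPM in floxed libraries. It was at 69.8 to 81.4 CPM in KO libraries, with floxed replicate 3 again the lowest. The lowest library for Rab27a, Rab44 and the whole Rab37 count was also that with the lowest neutrophil and mast cell marker sums, 112 CPM for the 8 mast cell and basophil markers against 578 to 667 CPM in the other floxed and 309 to 365 CPM in KO libraries. Of 7 mast cell and basophil markers tested, 1 was lower in KO libraries at an adjusted p-value under 0.05 by edgeR. The part of these cell types in the Rab values was not tested.

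Rab27b, the paralogue of Rab27a that acts in platelet granules, was at 3.22, 6.41, 3.10 and 2.30 CPM in floxed and 8.43, 8.48, 5.04 and 6.27 CPM in KO libraries. Only floxed replicate 3 reached the range of the KO libraries. The log2 fold change was 0.90 (SE 0.34, adjusted p = 0.159 by edgeR) and 1.31 (adjusted p = 0.00989) without floxed replicate 3. The sum of the megakaryocyte and platelet markers was higher in every KO library, and its part in the Rab27b value was not tested.

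None of the 18 endosomal genes tested passed by edgeR, and 3 were lower and 1 higher at an unadjusted p-value under 0.05, against 12.1% and 9.63% of all genes. All 7 early endosome genes had a log2 fold change below 0 (median -0.30), against 50.4% of all genes tested. The 3 other scalings run kept these signs, but a scaling moves all genes of a library together and so tests the signs little. Rab22a was at 0.03 with the replicate block and, like Rab5c, turned sign in some fits with 1 library left out. Rab5a, b and c drive the fusion of early endosomes. Rab5a had 43.8, 37.8, 33.8 and 33.8 CPM in floxed and 34.4, 33.6, 27.3 and 27.9 CPM in KO libraries. Libraries numbered 4 and 5 were the lower ones in both genotypes, and KO replicate 2 was above floxed replicates 4 and 5, so the groups overlapped, although the KO library was lower in each of the same-numbered pairs. The log2 fold change of Rab5a was -0.28 (SE 0.15, adjusted p = 0.339 by edgeR's quasi-likelihood test). Rab5b had 150, 93.7, 176 and 167 CPM in floxed and 107, 107, 134 and 128 CPM in KO libraries (log2 fold change -0.30, adjusted p = 0.442). Rab5c had 175, 123, 231 and 230 CPM in floxed and 174, 159, 179 and 193 CPM in KO libraries (log2 fold change -0.11, adjusted p = 0.817). For Rab5b and Rab5c floxed replicate 3 was the lowest of all 8 libraries. Of the stretches of 50 bases in the transcripts, 9.06% of Rab5a and 13% of Rab5b occur in another gene as well, and none of Rab5c.

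The other early endosome genes were led by Rab31, which carries cargo between the trans-Golgi network and endosomes. It had 174, 82.3, 169 and 169 CPM in floxed and 104, 103, 99.5 and 98.7 CPM in KO libraries, again with floxed replicate 3 below and the other 3 above the KO libraries (log2 fold change -0.55, SE 0.23, adjusted p = 0.201 by edgeR). Rab21, which acts in integrin endocytosis, and Rab20, a GTPase of maturing phagosomes, had log2 fold changes of -0.33 and -0.42. Rab22a, of early endosome sorting, was at 44.2 to 50.04 CPM in all 8 libraries (log2 fold change -0.03).

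Late endosome and lysosome genes went both ways, with 7 of 11 tested above and 4 below 0 and a median log2 fold change of 0.09. Rab39 could not be read as a Rab level, because 88.1% of its count was that of Rps6-ps3, a ribosomal pseudogene inside it. Its log2 fold change was 0.48 as counted and -0.62 as a ratio of means with that count taken off. Without Rab39, 6 of 10 were above and 4 below 0, with a median of 0.05. Without floxed replicate 3 the median of the 11 was -0.04. Rab7 had 244, 130, 313 and 231 CPM in floxed and 188, 184, 180 and 174 CPM in KO libraries (log2 fold change -0.34, SE 0.24, adjusted p = 0.457 by edgeR). The KO libraries were close to each other and the floxed values lay on both sides of them. Gm5577, which overlaps Rab7, had 93.1% of the Rab7 count and was at 220, 112, 305 and 221 CPM in floxed libraries. In KO libraries Gm5577 was at 174, 172, 173 and 168 CPM (log2 fold change -0.32, adjusted p = 0.525 by edgeR). Each Rab7 transcript counted overlaps Gm5577, so the part of Rab7 itself in these values cannot be told apart. Rab7b, which returns cargo from late endosomes to the trans-Golgi network, was at 4.67 to 9.61 CPM in floxed and 4.06 to 4.97 CPM in KO libraries (log2 fold change -0.71, SE 0.24, adjusted p = 0.129), with floxed replicate 3 as the only floxed library inside the KO range. Rab36 had 2.48, 2.16, 3.49 and 3.60 CPM in floxed and 4.10, 4.58, 4.12 and 5.22 CPM in KO libraries (log2 fold change 0.62, SE 0.24, adjusted p = 0.173). Rab34, its paralogue of lysosome positioning, had the largest log2 fold change of the class, 0.94 (SE 0.59, adjusted p = 0.393), at 0.115 to 0.624 CPM in floxed and 0.435 to 0.887 CPM in KO libraries. Rab32, of lysosome-related organelles, had a log2 fold change of -0.59 (adjusted p = 0.179), and Rab38, which shares that role, one of 0.27 (adjusted p = 0.524).

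None of the 10 recycling genes tested passed by edgeR, and 1 was lower at an unadjusted p-value under 0.05, as were 12.1% of all genes. Rab11a, of slow recycling, had 63.3, 42.2, 60.3 and 51.2 CPM in floxed and 66.3, 57.1, 43.8 and 44.5 CPM in KO libraries. The groups covered almost the same range (log2 fold change -0.04, SE 0.19, adjusted p = 0.94 by edgeR), and the sign turned in 6 of the 23 alternatives run. Rab4a, of fast recycling, had 1.98, 5.31, 2.55 and 2.49 CPM in floxed and 4.15, 4.73, 5.46 and 3.77 CPM in KO libraries (log2 fold change 0.55, SE 0.33, adjusted p = 0.37), with floxed replicate 3 among the KO values, and its whole span lies within the same-strand gene Gm20388, whose total count is far larger. Rab14, which links endosomes and the Golgi, had 180, 134, 151 and 133 CPM in floxed and 124, 140, 103 and 105 CPM in KO libraries (log2 fold change -0.34, SE 0.17, adjusted p = 0.273). Rab15 was close to the limit of detection, at 0.298 to 0.851 CPM in floxed and 0 to 0.234 CPM in KO libraries (log2 fold change -1.93, SE 0.75, adjusted p = 0.174), and it lies within the opposite-strand gene Fntb, whose total count is far larger. Rab11b was at 184 and 172 CPM in floxed replicates 4 and 5 and 199 CPM in both KO libraries of these numbers, against 81.0 to 123 CPM in numbers 1 to 3.

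Of the genes outside these classes, Rab23, known from cilia and hedgehog signalling, was lower in every KO library. It had 13.9, 12.4, 12.97 and 13.5 CPM in floxed and 8.79, 9.52, 10.2 and 10.7 CPM in KO libraries, with a log2 fold change of -0.43 (SE 0.15, adjusted p = 0.136 by edgeR's quasi-likelihood test). Rab40c, an adaptor of ubiquitin ligases, was at 19.6 to 26.3 CPM in floxed and 20.8 to 23.4 CPM in KO libraries (log2 fold change -0.09, adjusted p = 0.76). Of the genes that fit the naming pattern without encoding a Rab GTPase, Rab5if had a log2 fold change of -0.23 (adjusted p = 0.617) and Rab3ip, an exchange factor for Rab8, one of 0.17 (adjusted p = 0.642).

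**Figure D4:**
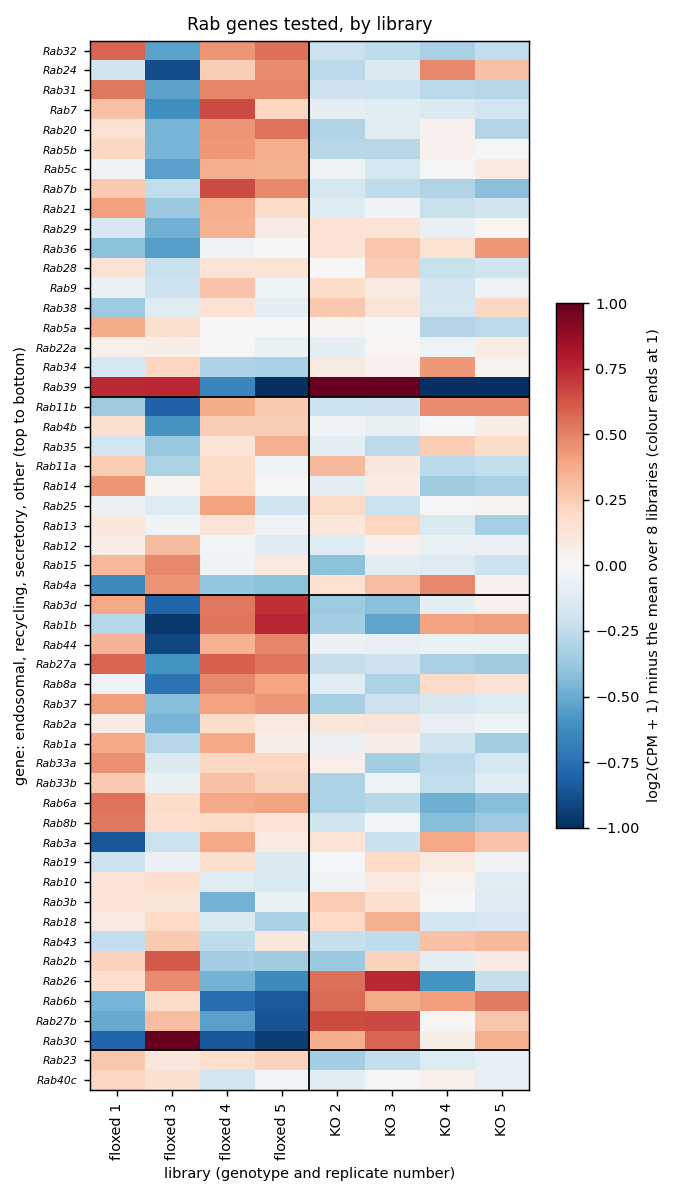
Each row is one of the 53 Rab GTPase genes tested and each column a library, with the log2(CPM + 1) value minus the mean over the 8 libraries in colour. Floxed replicate 3 is blue for most endosomal genes at the top of their block and red for Rab30, Rab27b and Rab4a, opposite to the other floxed libraries.

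Floxed replicate 3 was the lowest of the floxed libraries for 30 of the 53 Rab genes tested (56.6%, against 32.5% of all genes tested) and the highest for 14. Its log2(CPM + 1) was below the mean of the other floxed libraries by a median difference of -0.63 in the endosomal, -0.19 in the recycling and -0.11 in the secretory class, while the median over all genes was 0.06. Without this library, 14 of 52 Rab genes were lower and 4 higher in KO LT-HSCs at an adjusted p-value under 0.05 by edgeR, against 8.64% and 8.9% of 22094 genes tested. Leaving out the library that was the lowest for most Rab genes raises their floxed mean, so these counts are not independent of that choice. The lower genes were Rab5b, Rab7, Rab7b, Rab20, Rab21, Rab31 and Rab32 of the endosomal class and Rab3d, Rab6a, Rab8b, Rab27a, Rab33b, Rab37 and Rab44 of the secretory class. The higher genes were Rab4a, Rab6b, Rab27b and Rab30. Rab7 and Rab37 share most of their count with an overlapping gene, and Rab4a lies within a gene of far larger count. Their calls may thus include changes of those genes. Rab30, a Golgi GTPase, showed the dependence on this library most plainly, at 15.3 CPM there, 2.64 to 3.03 CPM in the other floxed and 6.28 to 9.49 CPM in KO libraries. Its log2 fold change was 0.40 (adjusted p = 0.727) with and 1.48 (adjusted p = 0.00186) without floxed replicate 3. Leaving out any other single library left 0 Rab genes past the test, by the same test.

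**Figure D5:**
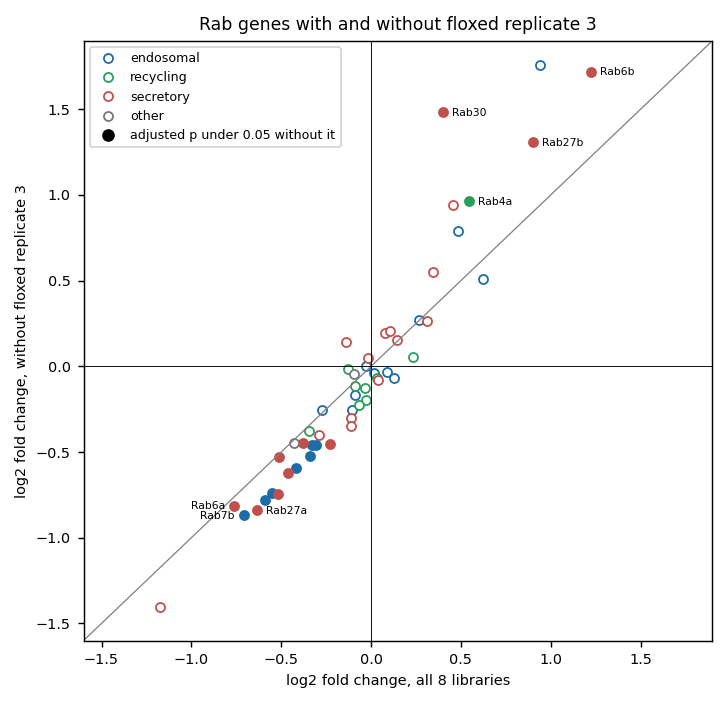
Log2 fold change of 52 Rab GTPase genes in the fit of 7 libraries without floxed replicate 3 against the fit of all 8, with the line of equal values. Filled points have an adjusted p-value under 0.05 without that library (14 lower and 4 higher), and those with a log2 fold change beyond 0.8 in size carry their names.

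A term for libraries numbered 4 and 5 against 1 to 3 gave 3 lower Rab genes (Rab6a, Rab8b and Rab23) and 3 higher ones (Rab6b, Rab27b and Rab36) of 53, against 9.65% lower and 8.88% higher of all genes in that fit. The adjusted p-values of these 6 genes were 0.00555 to 0.0444 by edgeR. With the replicate number as a block, 0 of 52 Rab genes passed by edgeR, against 48 of 21600 genes in all (0.222%).

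Of 141 genes that act on or with Rab proteins, 137 were tested, and 2 were higher and 2 lower in asrij KO LT-HSCs at an adjusted p-value under 0.05 by edgeR, against 1.22% and 1.75% of all genes. At an unadjusted p-value under 0.05, 9 were higher and 29 lower (9.63% and 12.1% of all genes), and the median log2 fold change was -0.13. Without floxed replicate 3, 11 of the 137 were higher and 19 lower at an adjusted p-value under 0.05, against 8.9% and 8.64% of all genes in that fit. Among them were 2 endosomal effectors (Appl1 and Plin3, both lower) and 3 secretory effectors (Sytl4 and Rims3 higher, Myo5a lower). Rabggtb, the beta subunit of Rab geranylgeranyl transferase, which attaches the lipid to the cysteines printed above, was at 20.9, 30.5, 14.8 and 17.2 CPM in floxed and 43.3, 56.2, 42.1 and 36.5 CPM in KO libraries. Every KO library was above every floxed library, with a log2 fold change of 1.09 (SE 0.24, adjusted p = 0.0464 by edgeR's quasi-likelihood test). It was the 1 of 8 genes of Rab prenylation and recycling that passed. Genes overlapping the spans of the partner genes were not looked for, so partner counts may include reads of other genes.

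Rabgef1, an exchange factor for Rab5, was at 46.3, 48.7, 54.2 and 42.5 CPM in floxed and 76.4, 72.3, 69.4 and 74.6 CPM in KO libraries (log2 fold change 0.61, SE 0.13, adjusted p = 0.0432), the 1 of 34 Rab GEF genes that passed. Tbc1d1, a GAP, was at 73.8, 58.4, 65.4 and 68.8 CPM in floxed and 44.0, 46.9, 37.5 and 38.3 CPM in KO libraries (log2 fold change -0.68, SE 0.14, adjusted p = 0.0411), the 1 of 38 Rab GAP genes. Acap2, an effector of Rab35 that inactivates Arf6, was at 188, 113, 123 and 128 CPM in floxed and 74.9, 85.4, 72.4 and 74.6 CPM in KO libraries (log2 fold change -0.84, SE 0.18, adjusted p = 0.0441), the 1 of 14 recycling effectors. The groups of these genes did not overlap. Under the replicate block, which uses 6 libraries, the 4 partners had log2 fold changes of 1.17, 0.60, -0.64 and -0.63 (in the order described) and adjusted p-values of 0.0864 to 0.179 by the same test. None of 26 endosomal and 17 secretory effectors tested passed by edgeR over all 8 libraries. At an unadjusted p-value under 0.05, 1 and 2 of them were higher and 4 and 2 lower, against 9.63% higher and 12.1% lower of all genes. By size of change they were led by the Rab5 effector Appl1 (log2 fold change -0.67, adjusted p = 0.057) and by Rims1 (log2 fold change -2.10, adjusted p = 0.149). Rims1 was near the limit of detection, at 0.153 to 2.51 CPM in floxed and 0.104 to 0.410 CPM in KO libraries, and its groups overlapped.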

How the data were processed

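NEBNext Ultra libraries were made from RNA of LT-HSCs sorted from asrij floxed and KO mice (4 of each) and sequenced on an Illumina HiSeq. Per the paper's methods and the submitters' processing notes, FastQC, Trim Galore and Bowtie 2 were used by the authors for quality, trimming and alignment to GRCm38/mm10 transcripts. They deposited raw counts of 138930 Ensembl transcripts in 8 files. The counter, annotation release and use of strand are not given in the sources used here. The authors deposited counts in all 8 files, but 7 are tab-separated under a comma-separated name and were recorded under another unit for an automatic unit check. All 8 were checked to hold whole numbers of at least 0.

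GENCODE M21, which holds 138789 of the transcripts, gave their genes. Each gene took the count of the transcript whose total over all libraries was highest. Counts cover introns and both strands, as judged from 9 transcripts nested inside Rab introns, 8 of them on the opposite strand. For each, the Rab count was at least the inner count in all 8 libraries. These are not independent cases, as most are transcripts of Cd300lf inside Rab37. The rest are the pseudogenes Rps6-ps3 in Rab39 and Rpl35a-ps3 in Rab44. Genes were filtered with filterByExpr, scaled by TMM and tested with glmQLFTest (edgeR 4.0.16 under R 4.3.3), p-values being adjusted over 21902 genes by Benjamini-Hochberg, after a test on simulated data. limma 3.58.1 and DESeq2 1.42.0 were alternatives. Single genes were also compared by exact two-sided permutation over 70 labelings on log2(CPM + 1). P-values from edgeR set the difference between the genotypes against the spread between libraries within them, and the main test has no term for the library number. Gene counts were 23412829 to 44874882 per library. CPM values are relative to the counts of the genes tested, 23387680 to 44769151 per library, times TMM factors of 0.8387 to 1.181.

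Coding ends of the other members are not reported here. Members, classes and lists were chosen with earlier results of these data known. Genes named were those with an adjusted p-value under 0.05, the Rab5 genes, Rab7, Rab4a, Rab11a and Rab27a, the 3 largest changes of each class, the 5 highest levels per length, genes with non-overlapping groups and untested genes. Of the partner genes, those past the test were named, or the largest change of a role. Other Rab genes named, such as Rab8a, Rab11b, Rab20, Rab21, Rab22a, Rab30, Rab31, Rab32, Rab38 and Rab39, were picked with their values in view. The replicate numbers come from the sample titles. Deviations from the genotype means correlated across genes at 0.374 to 0.579 in the 3 same-numbered pairs, at 0.346 to 0.603 in 5 pairs of other numbers within 1 to 3 or within 4 and 5, and at -0.589 to -0.34 in the 8 pairs across. Alternatives were other counts, filters, scalings and tests, the block, a term for numbers 4 and 5, and leaving out haemoglobin, immunoglobulin or overlapping genes or a library.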

Additional observations from a re-analysis of the deposited data

Results flagged for a closer look

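In 4 of the 42 sets of 4 libraries examined (21 Rab genes in floxed and KO), 1 library lay far from the other 3 by Dixon's criterion for 4 values, which chance alone meets in about 1 of 20 sets. Floxed replicate 3 was that library for Rab27a, at 6.81 on the log2(CPM + 1) scale against 7.94 to 8.004 in the other floxed libraries. It was also that library for Rab37, at 7.21 against 8.04 to 8.08, and for Rab44, at 7.12 against 8.37 to 8.52. In the KO libraries, replicate 4 stood apart for Rab34, at 0.92 against 0.52 to 0.57. Rab34 is near the limit of detection, at 0.887 CPM in that library.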

How the results depend on the processing

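The single lower Rab gene, Rab6a, was called in 12 of the 24 alternatives in which it had a value, with a log2 fold change of -1.01 to -0.69 over them. The count of lower Rab genes was 0 without a filter and with Rab transcripts free of overlap (chosen after seeing the data). It was 0 too with the replicate block and on numbers 3 to 5 without a block (also chosen after seeing the data). Leaving out overlapping Rab genes also gave 0, but this removes Rab6a, the only gene called, beforehand and so tests nothing. DESeq2 gave 2 lower and 1 higher, and the term for numbers 4 and 5 gave 3 lower and 3 higher. Leaving out 1 library gave 0 to 14 lower and 0 to 4 higher Rab genes, 0 to 1 past both thresholds, and 3 to 17 lower and 2 to 6 higher with groups that do not overlap. The higher value of each came without floxed replicate 3, and the cause was not tested. For groups that do not overlap, the share over all genes with 1 library left out is not given here. Separation by chance is more frequent with fewer libraries, so the shares given for all libraries do not apply to these counts. Genes with non-overlapping higher groups numbered 1 with sums over transcripts and 0 with library totals only. Library totals only moved the median of all genes to -0.20 and that of the Rab genes to -0.26, a Rab median of -0.06 relative to all genes. By genomic span, 1 of the 5 highest genes per length was kept.

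Of the Rab genes whose log2 fold change is printed, 8 turned sign: Rab11a with sums over transcripts (0.015), with transcripts free of overlap (0.017) and with 1 library left out (-0.15 to 0.065), Rab40c with the block (0.015) and without it on the same libraries (0.011), Rab1b with the block (0.0045) and with 1 library left out (-0.35 to 0.17), Rab5c with 1 library left out (-0.26 to 0.0029), Rab8a with 1 library left out (-0.30 to 0.046), Rab22a with sums over transcripts (0.039), with no filter (0.011), with the block (0.031), without it on the same libraries (0.031) and with 1 library left out (-0.051 to 0.017), Rab39 with the block (-0.096) and with the count of the overlapping gene taken off (-0.62, added after seeing the data), and Rab3ip with library totals only (-0.036). The block, in which the replicate number pairs 3 libraries of each genotype, made no Rab call, and that of Rab6a was absent from these 6 libraries with the block (adjusted p = 0.168) and without it (0.27, both by edgeR), at a log2 fold change of -0.71 in both. Depth limits genes of few counts, such as Rab15, Rab34 and Rab33a.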
